A study of Aedes aegypti with 12 samples.

Results

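Odorant-binding proteins are the soluble carriers of insect smell. The genes described here are those annotated as odorant-binding or pheromone-binding proteins in the yellow fever mosquito *Aedes aegypti*, with odorant receptors left out. The rule read the gene descriptions only, and it took 68 of the 19256 genes in the deposited tables. The study set wild-type (Liverpool) mosquitoes against a strain mutant for the gustatory receptor gene AaegGr34, in the brain and in the fat body, the insect organ of lipid storage and of much blood protein synthesis. Each of the 4 groups (wild-type brain, mutant brain, wild-type fat body and mutant fat body) had 3 polyA RNA libraries, 12 in all. Both strains had constant sugar solution, and neither the sex, age and feeding state of the dissected animals nor the lesion is stated in the labels. The labels do not say which animals or pools lie behind a library, so the p-values cover only library-to-library spread.

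An odorant-binding protein is small and secreted. In the hairs of the antenna, palps and mouthparts it is made by support cells and released into the fluid around the sensory neurons, where it binds hydrophobic odorants and carries them towards receptors in the neuron's membrane. Odorant receptors work with a shared coreceptor, Orco, and sensory neuron membrane protein 1 (SNMP1) assists the detection of lipid odorants in flies. Members of the family are also made outside the smell organs, in fat body and blood among others, where their ligands are mostly unknown. The gene names used below (Obp99a, lush and so on) are short forms of the RefSeq descriptions, many of which were given by likeness to *Drosophila* proteins, so several genes share a name and each is given with its LOC number.

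Library depth was 18.5 M to 31.3 M counts. The labels' target, Gr34 (LOC5570009), had 24, 22 and 7 counts in wild-type brain libraries, 6, 11 and 28 in the mutant ones and between 2 and 16 in fat body, which does not check the genotype labels. The 17 neuron markers summed to between 1556 and 1969 TPM (a transcript level per length, scaled to a common library total) in brain libraries and between 168 and 414 in fat body. The 27 fat body markers summed to between 1795 and 3036 TPM in fat body and between 420 and 623 in brain. Photoreceptor transcripts made up 28.9 to 33.3% of TPM in wild-type brain and 25.2 to 27.1% in mutant brain.

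Transcripts of 37 of the 68 binding protein genes reached 10 counts in at least 1 library. Another 21 had between 1 and 9 counts at most, and 10 had a rounded count of 0 in all 12 libraries. Of those 10, 6 were also at 0 TPM throughout, and the rest had fractional counts that rounding took to 0. A count of 0 over all 12 libraries allows up to 0.0113 CPM (counts scaled to library size). The silent and near-silent genes were concentrated in a few names. Of 16 genes named Obp45 or Obp45-like, 1 reached 10 counts, with at most 13. Of 12 named Obp67 or Obp67-like, 3 did. By contrast all 4 Obp72 genes, all 3 Obp83a genes, all 4 Obp99a and Obp99b genes and both lush genes passed that level. The filter on low counts let 33 genes into at least 1 test, and the other 35 were never tested, so the counts of called genes below concern the more abundant part of the family.

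Summed over the 68 genes, binding protein transcripts amounted to 2310, 1809 and 1650 TPM in the 3 wild-type brain libraries, against 2470, 2720 and 2523 TPM in the mutant ones. Fat body held 347, 368 and 215 TPM in wild type and 228, 240 and 272 TPM in the mutant. Brain was thus above fat body in every library, while the genotypes overlapped in fat body and did not in brain. Much of the brain sum came from 1 gene, LOC5567053. Without it, the brain sums were 1738, 866 and 611 TPM in wild type and 1339, 1282 and 696 TPM in the mutant, and the genotypes overlapped.

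Before the levels of single genes, the brain libraries need a description, because they differed among themselves in this family. In wild-type brain replicate 1, 20 of the 33 tested genes stood at least 2-fold above the mean of the other 2 wild-type libraries, against 1.44% of all tested genes. That library was the highest of its group for 27 of the 33, beside 29.2% of all tested genes. In the mutant, replicate 3 was the lowest of its group for 28 of the 33, beside 36.4% of all tested genes. Among the genes that moved this way were Obp83a LOC5577119, at 19.1, 4.52 and 2.98 CPM in the wild-type libraries, and lush LOC5568029, at 10.7, 3.07 and 1.23 CPM. Lush is the protein that *Drosophila* needs to sense the pheromone vaccenyl acetate and that binds alcohols.

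Orco and SNMP1, which mark olfactory neurons and their support cells in the antenna and palps, ordered the libraries in a like way. Orco (LOC5567058) measured 20.5, 8.80 and 4.06 TPM in wild-type brain and 12.5, 12.9 and 4.98 TPM in the mutant. SNMP1 (LOC5566411) measured 30.4, 12.0 and 3.22 TPM in wild type and 29.0, 28.7 and 17.9 TPM in the mutant. The coreceptor ionotropic receptor 8a (LOC5576592), by contrast, lay between 6.66 and 7.18 TPM in all 6 brain libraries. Its list as a whole was not so even. The 62 ionotropic receptor genes summed to 19.8, 14.7 and 13.5 TPM in wild-type brain and 22.7, 20.9 and 15.8 TPM in mutant brain. Over the whole list of 95 odorant receptor genes the sum was 41.5, 20.2 and 13.5 TPM in wild-type brain and 28.4, 28.8 and 16.2 TPM in mutant brain, and 12 and 16 of them were at 0 in the respective group. In bulk tissue, more cells of a type and more RNA per cell cannot be told apart, and the part of smell-organ tissue in the results below was not tested.

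**Figure D1:**
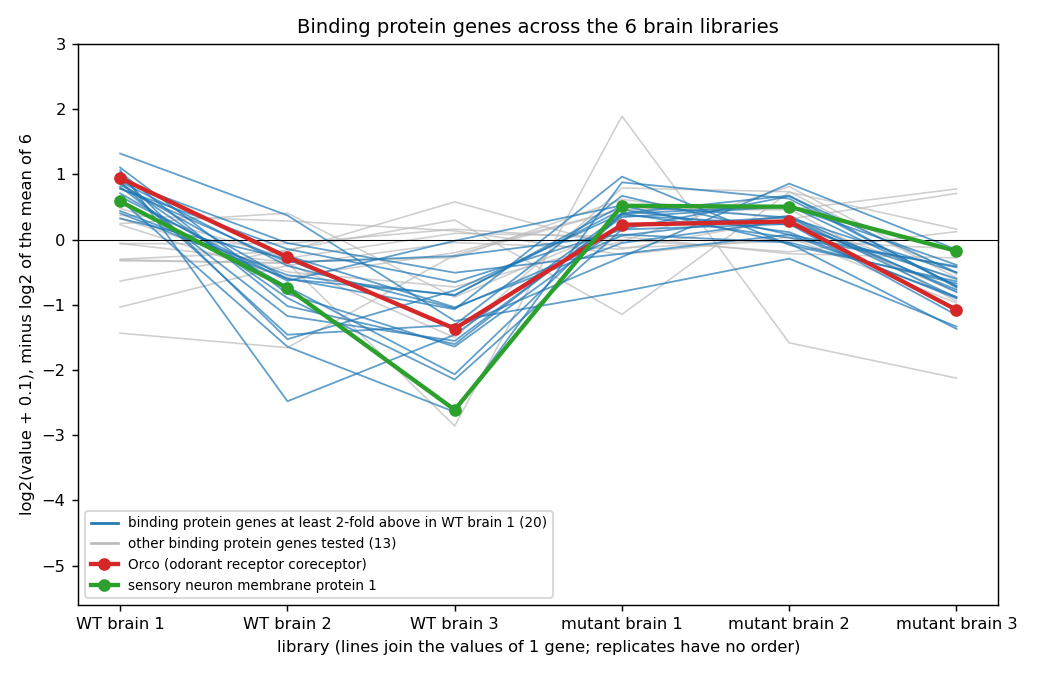
Each thin line is 1 of the 33 binding protein genes tested in brain, as log2 of CPM (plus 0.1) minus log2 of its mean over the 6 brain libraries; thick lines show Orco and SNMP1 from TPM in the same way. The 20 blue genes were chosen for standing at least 2-fold above in wild-type brain replicate 1. Within the mutant, 19 of them were also lowest in replicate 3, as were 9 of the 13 others, beside 36.4% of all tested genes.

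Not every gene stood at least 2-fold above in wild-type brain replicate 1. The 13 other genes included the most abundant one, LOC5567053, whose ratio of wild-type replicate 1 to the mean of the other 2 libraries was 0.565. Obp99b LOC5564586 had a ratio of 0.594, Obp99a LOC5567045 one of 0.623, and the A10 genes LOC5573203 and LOC5576188 ratios of 0.923 and 0.670. Both A10 genes are named after a *Drosophila* antennal protein of the chemosensory protein family, a different fold from the classic odorant-binding proteins. No gene in the tables carries the words chemosensory protein in its description.

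In brain the family was led by Obp99a LOC5567053 (AAEL005772), which lies on chromosome 1 of the AaegL5.0 assembly. Its level was 572, 942 and 1038.5 TPM in wild type and 1131, 1438.5 and 1828 TPM in the mutant. It made up between 24.8 and 72.4% of the TPM of all 68 genes, depending on the library. Next came Obp72 LOC5576180 with 425, 200.2 and 99.9 TPM in wild type and 232, 271 and 126 TPM in the mutant. Obp83a LOC5567584 had 352, 152 and 83.5 TPM in wild type and 212, 241 and 104 TPM in the mutant. Obp83a of *Drosophila* is an antennal protein found around odour-sensing hairs.

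The fourth in order, A10 LOC5573203, was the steadiest of the abundant genes. It measured 111, 117 and 118 TPM in wild-type brain and 124, 100.3 and 120.4 TPM in mutant brain, with an SD of 8.40 TPM over the 6 libraries. Obp67 LOC5579332 (mean 72.8 TPM over 6 brain libraries), Obp56d LOC5575342 (65.9), Obp83a LOC5571968 (64.3) and Obp72 LOC5563613 (37.6) followed. Among the 8 most abundant genes, the ranges of neighbours in this order overlapped everywhere except between the first and the second. Within libraries, LOC5576180 exceeded LOC5567584 in 6 of 6, and LOC5571968 exceeded LOC5563613 in 6 of 6. The other neighbours below LOC5567053 changed places in at least 1 library. Obp67 LOC5579332 exceeded Obp56d LOC5575342, the next by mean, in only 1 of 6 libraries.

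**Figure D2:**
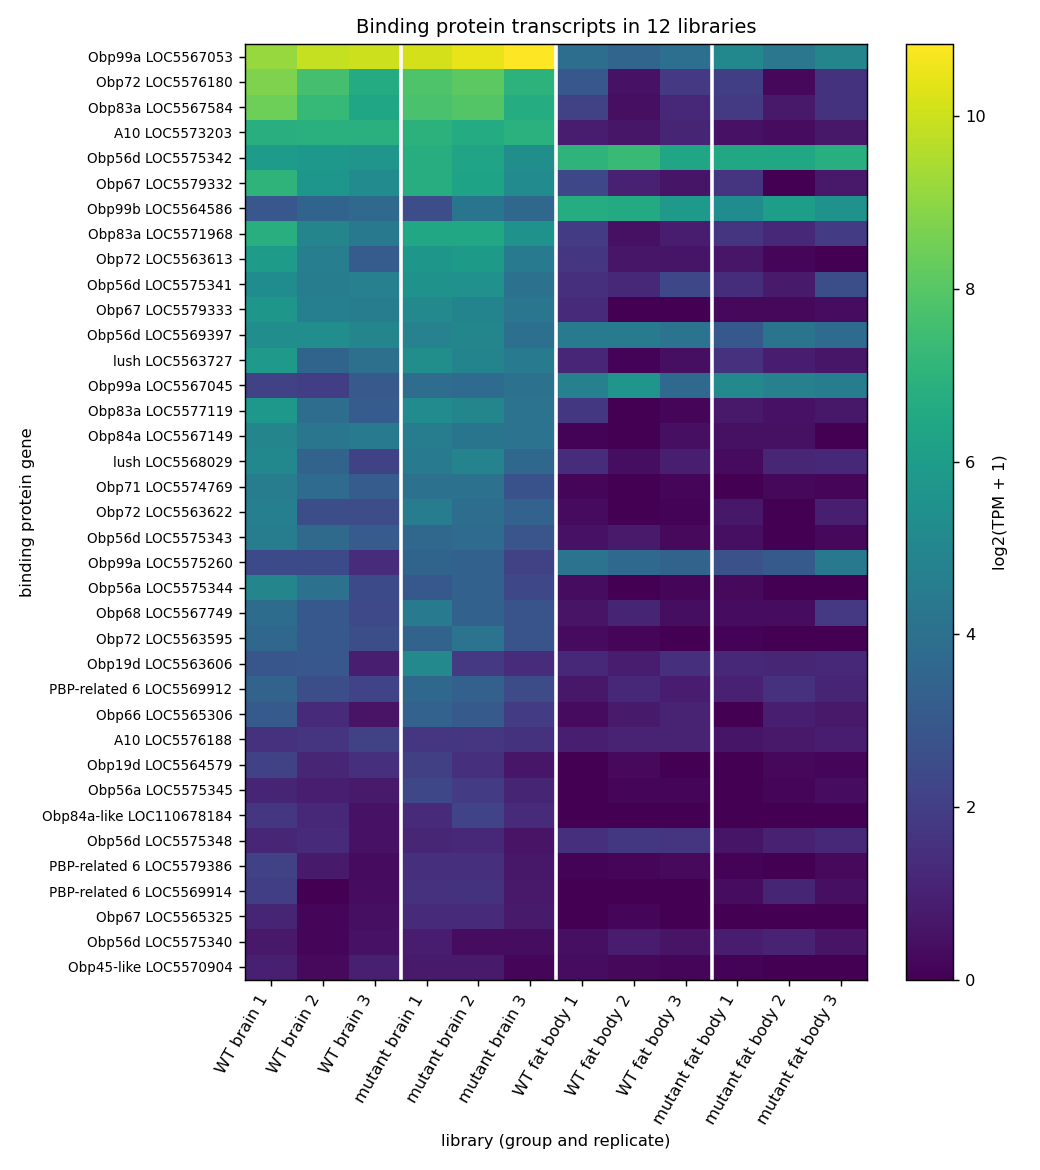
The map gives log2(TPM + 1) for the 37 binding protein genes with at least 10 counts in a library (rows, by their highest tissue mean) in the 12 libraries (columns, by group and replicate). Most rows are bright in the 6 brain columns and dark in fat body, and a small set that includes Obp56d LOC5575342 and Obp99b LOC5564586 is bright in fat body.

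Fat body had fewer abundant genes, in a different order, and shared some of them with brain. Obp56d LOC5575342 (AAEL002587) led with 130.2, 162 and 81.7 TPM in wild type and 89.9, 88.4 and 113 TPM in the mutant, on average 39.5% of the family's TPM. Obp99b LOC5564586 had 104, 97.7 and 57.5 TPM in wild type and 37.4, 66.5 and 47.1 TPM in the mutant. In *Drosophila*, Obp99b is transcribed in the fat body of the head. Obp99a LOC5567045 followed with 25.6, 48.5 and 11.9 TPM in wild type and 33.6, 25.1 and 23.1 TPM in the mutant. LOC5567053 (mean 19.95 TPM over 6 fat body libraries), Obp56d LOC5569397 (15.8) and Obp99a LOC5575260 (11.8) came next. From the seventh gene on, means were at or under 2.48 TPM. Ranges of neighbours overlapped throughout the first 8, although LOC5575342 exceeded LOC5564586, LOC5564586 exceeded LOC5567045 and LOC5575260 exceeded the seventh gene, Obp72 LOC5576180, in 6 of 6 libraries each.

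Fat body was then compared with brain within each genotype, which gives 2 comparisons on separate libraries. In wild type 21 of 30 tested genes were lower in fat body and 5 were higher, by edgeR's quasi-likelihood test at an adjusted p under 0.05 (below, "called"). Of all genes, 32.7% were called lower and 32.0% higher in that comparison. In the mutant 22 of 29 were lower and 2 higher, against 31.6% and 32.8% of all genes. The median log2 fold change of the tested binding protein genes, fat body over brain, was -4.20 in each genotype, beside 0.02 and 0.06 over all genes. The low-count filter lets in a gene that is abundant in a single tissue. Genes let in through brain alone could hardly come out otherwise than lower in fat body. With every gene of a total above 0 kept, the medians were -2.63 in wild type and -3.15 in the mutant. On that wider set, 15 of 56 genes lay above 0 in wild type and 14 of 52 in the mutant. Of the 29 genes tested in both, all 29 had the same sign in both, and in both 20 were called lower and 2 higher.

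**Figure D3:**
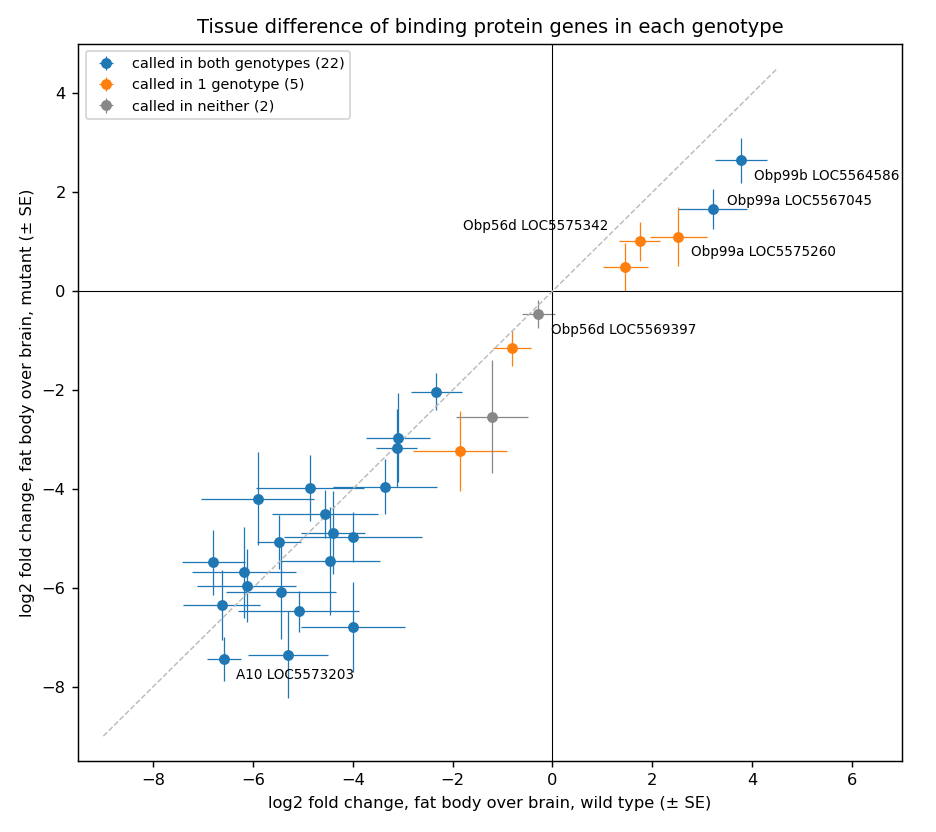
Each point is a binding protein gene tested in both genotypes (29), placed by its log2 fold change of fat body over brain in wild type (x axis) and in the mutant (y axis), with SE bars; colour gives the number of genotypes in which it was called, and the dashed line marks equal values. All 29 points lie in the lower left or upper right, 22 of them called in both genotypes.

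The clearest of these tissue differences was that of A10 LOC5573203. Against the brain levels given above, fat body held 0.816, 0.575 and 1.17 TPM in wild type and 0.431, 0.265 and 0.606 TPM in the mutant. The log2 fold change was -6.58 (SE 0.34, edgeR adjusted p 1.2e-05) in wild type and -7.44 (SE 0.44, adjusted p 1.7e-05) in the mutant. LOC5567053 was likewise lower in fat body, by -5.48 (SE 0.45) and -5.07 (SE 0.54) on the log2 scale, though it remained the fourth gene there. All 3 Obp83a genes and both lush genes were called lower in fat body in both genotypes. The Obp83a genes ranged from -6.13 to -4.0 in wild type and from -5.96 to -4.51 in the mutant. Obp84a LOC5567149 differed by -6.79 (SE 0.64) and -5.49 (SE 0.66) on the same scale, and Obp71 LOC5574769 by -6.63 (SE 0.78) and -6.35 (SE 0.71). All 4 Obp72 genes were called lower in fat body in both genotypes too, from -5.91 to -4.0 in wild type and from -7.35 to -4.20 in the mutant.

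Several of these calls leaned on single libraries. Without wild-type brain replicate 1, 19 of 30 genes were called lower and 4 higher, and the median was -3.22. Obp83a LOC5577119 (adjusted p 0.149 in edgeR) and lush LOC5568029 (0.0942) then lost their calls in wild type, and in the mutant, on other libraries, their adjusted p were 1.7e-04 and 7.6e-04. Obp19d LOC5564579 was called in wild type only, and in the mutant it was not tested. A10 LOC5576188 and Obp66 LOC5565306 were called in the mutant only, at -1.15 (SE 0.36) and -3.24 (SE 0.81), beside -0.81 (SE 0.39) and -1.85 (SE 0.95) in wild type, and the interaction test, below, called neither. With limma on log2(TPM + 1) in place of edgeR on TMM-scaled counts, both the test and the scale changed. The median of all genes moved to -0.41 in wild type and -0.43 in the mutant. On log2(TPM + 0.1) the medians were -0.49 and -0.52. With log2(TPM + 1), all calls split into 2342 higher and 4630 lower in wild type and 2158 and 4539 in the mutant. In that fit, 23 of 30 binding protein genes were called lower and 4 higher in wild type, and 22 and 2 of 29 in the mutant.

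The genes called higher in fat body were named Obp99b, Obp99a or Obp56d. Obp99b LOC5564586 rose from 6.74, 10.1 and 12.0 TPM in wild-type brain to the fat body levels above, a log2 fold change of 3.78 (SE 0.53, edgeR adjusted p 7.0e-04). In the mutant the change was 2.65 (SE 0.46, adjusted p 0.00181), from 4.90, 17.7 and 11.4 TPM in brain. No brain library of either genotype reached the lowest fat body library. Obp99a LOC5567045 was higher in fat body by 3.21 (SE 0.68, adjusted p 0.00508) in wild type and by 1.66 (SE 0.40, adjusted p 0.00861) in the mutant.

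A further 3 genes were called higher in wild type and missed the threshold in the mutant. For Obp99a LOC5575260 the log2 fold changes were 2.52 (SE 0.57) and 1.10 (SE 0.60), for Obp56d LOC5575342 1.75 (SE 0.41) and 1.01 (SE 0.40), and for Obp56d LOC5575348 1.45 (SE 0.45) and 0.49 (SE 0.48). The interaction test, below, called none of the 3, so the tissue difference was not shown to differ between genotypes. The call on LOC5575348, a gene with at most 42 counts, was lost without any 1 of the wild-type brain libraries or without wild-type fat body replicate 2 (adjusted p 0.0507 to 0.0677). It was also lost with limma on log2(TPM + 1), at 0.61 (adjusted p 0.0653), and on log2(TPM + 0.1), at 1.03 (adjusted p 0.102). Obp56d LOC5569397 was the only gene above 10 TPM on average in both tissues that was called in neither genotype, at -0.29 (SE 0.33) and -0.47 (SE 0.28). On the TPM scale it was called lower in fat body in wild type (adjusted p 0.0149 with limma).

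The family lay in clusters on the chromosomes, 9 genes on chromosome 1, 23 on chromosome 2 and 33 on chromosome 3, with 3 unplaced. With neighbours joined over gaps of up to 100 kb, 45 of the 68 genes fell into 12 clusters of at least 2. Neighbours could differ in the tissue that held most transcript. On chromosome 1, Obp99a LOC5567045 (122364348 to 122365537) and LOC5567053 lie on the same strand with 20134 bp between them. Averaged over 6 libraries, the first had 9.21 TPM in brain and 27.96 in fat body, and the second 1158 in brain and 19.95 in fat body. On chromosome 3, Obp19d LOC5564579 and Obp99b LOC5564586 are 727 bp apart on opposite strands. The former averaged 1.96 TPM in brain and 0.0814 in fat body, and the latter 10.5 and 68.3 TPM.

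The Obp56 cluster on chromosome 3 (257061410 to 257206722) holds 8 genes. Its sixth gene in order, Obp56d LOC5575342, was the leading binding protein transcript of fat body at 111 TPM on average. The genes on either side, LOC5575343 and LOC5575341, averaged 12.2 and 31.9 TPM in brain and 0.321 and 2.45 TPM in fat body, and both were called lower in fat body in both genotypes. In *Drosophila*, Obp56 genes also lie in a cluster.

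The largest cluster, 12 genes named Obp66 and Obp67 on chromosome 2 (4421770 to 4603833), was close to silent apart from its first pair. Obp67 LOC5579333 and LOC5579332 averaged 29.98 and 72.8 TPM in brain, and the other 10 genes had at most 8 counts in any library. A cluster of 6 Obp45-like genes on chromosome 3 had at most 3 counts in a library. Some neighbours cannot be separated with certainty. Of the 68 genes, 22 overlap another annotated gene, 18 of them one on the other strand, and the sources used here do not say whether counting used strand. Obp72 LOC5563613 and LOC5563622 overlap by 26 bp on opposite strands. The genes LOC5569914 and LOC5579386, both named pheromone-binding protein-related protein 6, had equal counts in 4 libraries, among them all 3 mutant brain libraries at 13, 15 and 5. In wild-type brain they had 33, 0 and 2 counts against 39, 6 and 2. Wild-type fat body held 0, 0 and 0 against 1, 1 and 2, and mutant fat body 3, 11 and 3 against 1, 0 and 2. All deposited counts of both genes were whole.

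**Figure D4:**
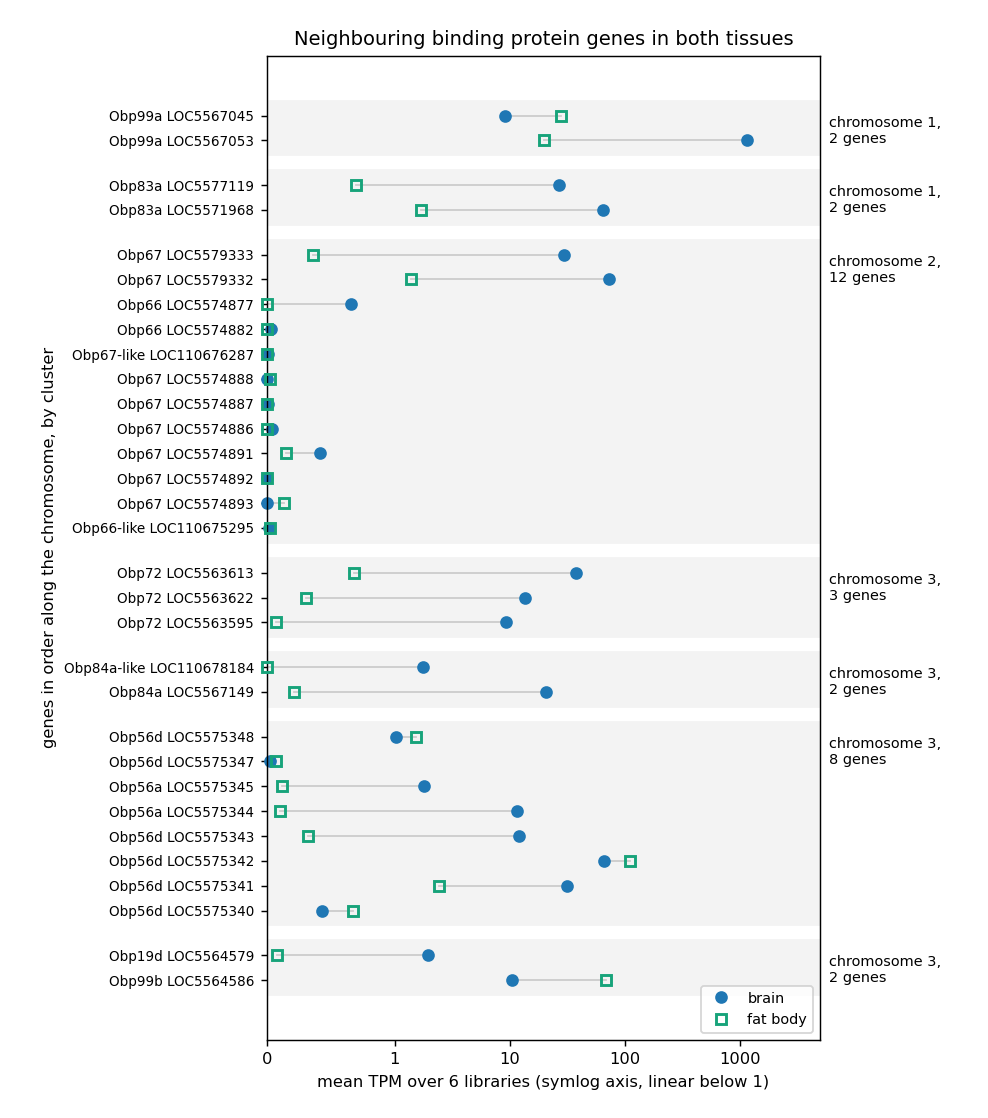
Mean TPM over 6 libraries in brain (filled circles) and fat body (open squares) for the 7 clusters in which a gene reached 100 counts, with genes in order along the chromosome (y axis) and a symlog x axis that is linear below 1. In 2 of the pairs, Obp99a LOC5567045 with LOC5567053 and Obp19d LOC5564579 with Obp99b LOC5564586, 1 gene is higher in fat body and its neighbour in brain.

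Between genotypes, 1 binding protein gene changed in brain. Obp99a LOC5567045 (AAEL005770), 1 of the genes higher in fat body, rose from 3.33, 3.00 and 7.19 TPM in wild-type brain to 13.7, 12.7 and 15.3 TPM in mutant brain. The genotypes did not overlap. Its log2 fold change, mutant over wild type, was 1.59 (SE 0.38, edgeR adjusted p 0.0457), with 2.00, 1.70 and 4.73 CPM against 7.74, 7.71 and 9.65 CPM. It was the only call among 33 tested genes in either direction, 3.03%, beside 4.6% of all genes called higher and 4.26% called lower. Without adjustment, 3 of the 33 had a p under 0.05, beside 22.8% of all genes.

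The call on LOC5567045 sat near the threshold. Leaving out any 1 of the 6 brain libraries other than wild-type replicate 3 took the adjusted p to between 0.0900 and 0.145, with a log2 fold change of 1.33 to 1.65. A fit of all 12 libraries gave an adjusted p of 0.295. In the authors' deposited table its log2 fold change was 1.58 with an adjusted p of 7.96e-04. The 27 fat body markers, summed, were also higher in mutant brain, at 623, 599 and 597 TPM against 420, 508 and 447 TPM in wild type. Only 13 of the 27 were tested in brain, and 3 of these were called higher and 1 lower, beside 4.6% and 4.26% of all genes. Of the 27, 3 were at 0 throughout wild-type brain and 2 throughout the mutant. Obp99b LOC5564586, the gene with the largest rise in fat body over brain, had 2.26, 3.19 and 4.42 CPM in wild-type brain and 1.56, 5.98 and 4.0 CPM in mutant brain, and these overlapped. The part of fat body tissue in the difference was not tested.

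LOC5567053, the next gene of that pair and the most abundant of the family, had TPM values that did not overlap between genotypes, given above. Its CPM values did, at 221, 344 and 438 in wild type and 409, 563 and 739 in the mutant. The log2 fold change of 0.77 (SE 0.30) missed the threshold in edgeR (adjusted p 0.184), with a 95% interval of 0.06 to 1.48. With DESeq2 it passed (adjusted p 0.0475), as in the authors' deposited table (0.0475). The third Obp99a gene, LOC5575260, had a log2 fold change of 1.11 (SE 0.48, adjusted p 0.228). Obp56d LOC5569397 had 23.5, 22.2 and 19.9 CPM in wild type and 15.5, 18.6 and 9.21 CPM in the mutant, without overlap, and a log2 fold change of -0.60 (SE 0.24, adjusted p 0.194). Groups without overlap were thus found for 1 gene in each direction out of 33, beside 14.5% of all genes higher and 14.1% lower.

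Over the tested binding protein genes, the genotype comparison in brain depended on the libraries that entered. For the 20 genes chosen as high in wild-type brain replicate 1, a rise without that library follows from the choice. For the 13 others, the median log2 fold change was 0.28, and 0.50 without that library. The median log2 fold change over the 33 tested genes was 0.24, beside 0.01 over all genes. Without wild-type brain replicate 1 it was 0.77, with 28 of 34 tested genes above 0 and 11 with an unadjusted edgeR p under 0.05, beside 18.8% of all genes. Obp83a LOC5571968 was the only one called (1.56, edgeR adjusted p 0.0465). That gene is 1 of the 20, with a ratio of 4.52, and the counts over 34 genes include the chosen ones. The call and these counts thus follow in part from the choice. Without mutant brain replicate 3 the median was 0.54, and Obp56a LOC5575345 (1.82, adjusted p 0.0407) and Obp56d LOC5575342 (0.70, adjusted p 0.0373) were the genes called. Without mutant brain replicate 1 it was -0.06, with no gene called. Direction and size of the family's genotype difference in brain therefore rested on which library entered. A10 LOC5573203, the steady gene, differed by -0.03 (SE 0.11), with a 95% interval of -0.29 to 0.23.

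**Figure D5:**
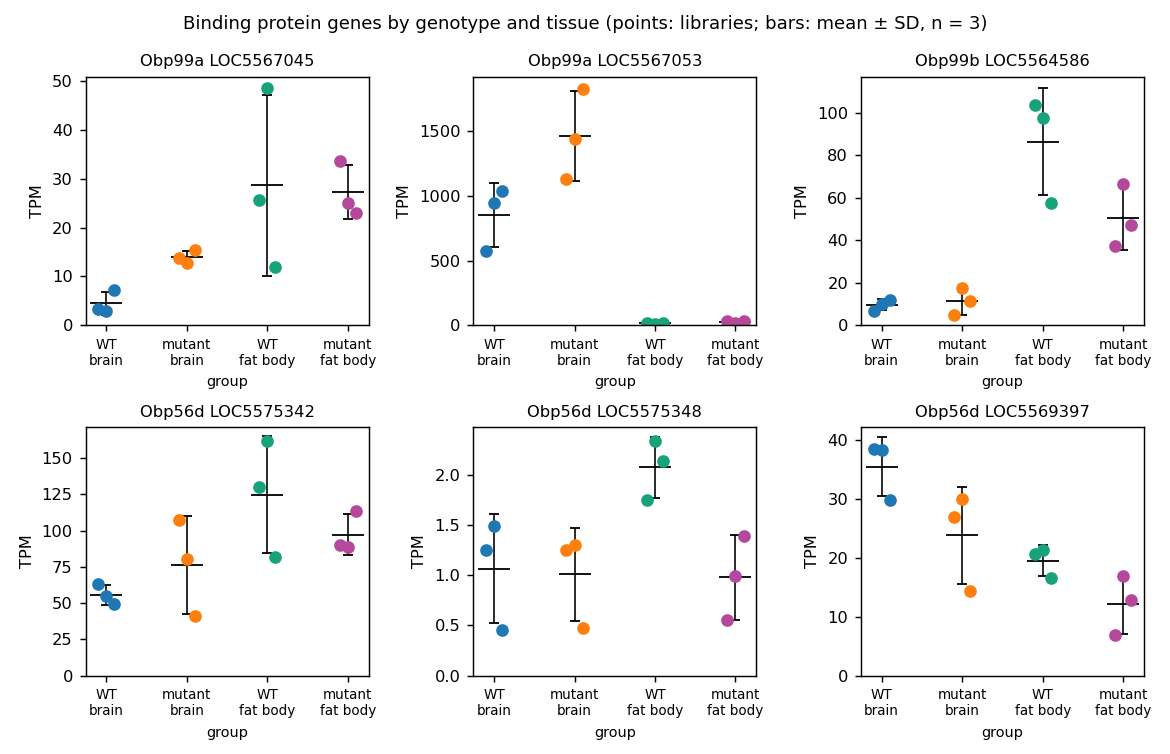
TPM in the 4 groups for 6 binding protein genes; points are libraries and bars give the mean ± SD (n = 3), and each panel has its own y axis from 0. Obp99a LOC5567045 was the 1 gene called between genotypes, in brain, and Obp56d LOC5575348 is the gene with the smallest p in fat body, where none was called.

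In fat body no binding protein gene was called between genotypes. On simulated data this test recovered 1% of log2 changes of 1 and 32% of changes of 2. An absent call therefore does not show the absence of a change of that size. Of 16 tested genes, 0 were called higher, beside 0.138% of all genes, and 0 lower, beside 0.0952%; 0 had an unadjusted p under 0.05, beside 7.85%, and DESeq2 called 0. The smallest p belonged to Obp56d LOC5575348, at 2.38, 1.82 and 1.44 CPM in wild type and 0.776, 0.647 and 1.32 CPM in the mutant. These did not overlap, and the log2 fold change was -1.04 (SE 0.46, edgeR adjusted p 0.668). Groups without overlap were found for 1 of the 16 genes in each direction, beside 6.07% of all genes higher and 4.97% lower. LOC5567053 had 14.0, 10.7 and 14.7 TPM in wild-type fat body and 32.3, 18.9 and 29.1 TPM in the mutant, and a log2 fold change of 1.18 (SE 0.54, adjusted p 0.702). Its CPM values overlapped. Obp56d LOC5569397 had a log2 fold change of -0.79 (SE 0.37, adjusted p 0.720), and Obp99b LOC5564586 one of -0.89 (SE 0.45, adjusted p 0.783).

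The fat body libraries also differed among themselves. Wild-type replicate 1 was the highest of its group for 13 of the 16 genes, beside 46.6% of all tested genes. In that library 8 stood at least 2-fold above the mean of the other 2 libraries, beside 13.5% of all genes. Mutant replicate 2 was the lowest for 14 of the 16, beside 40.2% of all tested genes. The 155 gut markers summed to 10554 and 16973 TPM in mutant fat body replicates 2 and 3 and to between 721 and 2466 in the other fat body libraries. Their part in these values was not tested.

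Whether the genotype effect differed between tissues was tested across all 12 libraries. This test recovered 0% of log2 changes of 1 and 35% of changes of 2 on simulated data, so it could miss such differences. Of 32 binding protein genes tested, 0 were called, beside 0.467% of all genes, 0 had an unadjusted p under 0.05, beside 9.03%, and DESeq2 called 0. For LOC5567045 the effect in fat body minus that in brain was -1.48 (SE 0.84, edgeR adjusted p 0.707), and for LOC5567053 it was 0.47 (SE 0.66, adjusted p 0.981).

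The receptors that act after the binding proteins were mostly too low to test. In brain, 6 of 95 odorant receptor genes entered the genotype test, and 1 was called in each direction. Of all genes, 4.6% were called higher and 4.26% lower in that test. Odorant receptor 10 (LOC5567346) rose from 1.22, 0.960 and 0.889 TPM to 4.42, 4.09 and 4.47 TPM, a log2 fold change of 2.05 (SE 0.23, edgeR adjusted p 0.00325). Odorant receptor 16 (LOC5568767) fell from 1.96, 3.87 and 2.19 TPM to 0, 0.141 and 0 TPM. Orco did not pass (log2 fold change -0.16, SE 0.62), nor did SNMP1 (0.72, SE 0.75). None of 5 tested ionotropic receptors was called. Of 7 tested gustatory receptors, Gr46 (LOC23687512) was called higher, at 0, 0.556 and 0.515 TPM in wild type and 2.92, 2.59 and 11.0 TPM in the mutant. That call sat at the threshold, with a log2 fold change of 4.12 (SE 1.00, edgeR adjusted p 0.0496). In fat body no tested member of these receptor lists was called, beside 0.138% of all genes called higher and 0.0952% lower.

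Enzymes of the classes that can clear odorants, such as cytochromes P450, esterases and glutathione S-transferases, were numerous in both tissues, and most have other roles. In brain 21 of 203 tested genes were called higher in the mutant and 9 lower, beside the 4.6% and 4.26% of all genes given above. Cytochrome P450 28a5 (LOC5568656) rose from 11.2, 20.9 and 17.4 TPM to 95.5, 82.8 and 99.8 TPM, and P450 9f2 (LOC5564749) fell from 19.5, 25.2 and 17.6 TPM to 10.7, 8.94 and 12.2 TPM. In fat body 1 of 208 was called, P450 4c3 (LOC5569919), which rose from 0.0367, 0.0983 and 0.10 TPM to 4.62, 11.1 and 6.06 TPM.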

How the data were processed

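Binding protein genes were the rows whose description matches odorant-binding, pheromone-binding or chemosensory protein. The members, gene lists and tests were chosen with earlier results of these data known. The pattern for the D7 list was corrected after the files were seen, to drop glutathione S-transferases of that name. PolyA RNA was made into NEBNext libraries with random primers, per the labels' protocols. FastQC, STAR, featureCounts of Subread and DESeq2 are named in the submitters' processing notes, without versions. No source used here gives the build, and all 68 genes had the AaegL5.0 positions of the RefSeq table. The treatment of multi-mapped reads and of strand is not stated in them.

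The authors deposited estimated counts, of which 25.4% were not whole (25 of the 68 genes have such values); they were rounded. The authors deposited TPM values, used for levels between genes. The authors' deposited DESeq2 tables give, per the file headers, each gene's log2 fold change and p-value, with a test score and the mean signal of normalized counts. Tests used edgeR 4.0.16 in R 4.3.3 on counts (TMM, filterByExpr with a count of 10 and a total of 15, robust quasi-likelihood F-test, two-sided, Benjamini-Hochberg over all tested genes, threshold 0.05), with each comparison fitted on its own libraries and the difference between tissues on all 12. Both tissue comparisons were not part of the authors' own tables. CPM uses TMM-scaled library sizes of the comparison. Alternatives were DESeq2 1.42.0, its size factors, library size only, other filters, limma 3.58.1 with voom or on log2(TPM + 1) and log2(TPM + 0.1), all 12 libraries, a replicate block and each library left out. Fits were tested on simulated data with planted log2 changes of 1 and 2. Between genotypes, 60% and 93% of these were recovered in brain, and 1% and 32% in fat body. Between tissues the shares were 10% and 78% in wild type and 13% and 72% in the mutant. For the difference between tissues in genotype effect they were 0% and 35%. Floors use 3 counts, and intervals and floors cover counting error or library spread only, since reads carry no molecular identifiers.

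Genes were named by rule: called genes, up to 10 a direction by adjusted p, the 3 smallest p per genotype comparison, the 8 most abundant per tissue, and up to 2 called genes a direction per other list. Genes named for their cluster or for 1 library, other genes called under 1 alternative, and LOC5575260 and LOC5564586 in genotype comparisons were added after their values were seen.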

Additional observations from a re-analysis of the deposited data

How the results depend on the processing

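In brain, the count of binding protein genes called higher in the mutant was 1 and became 2 with DESeq2, 0 with all 12 libraries in 1 fit, 2 with the replicate block and 0 to 2 with a library left out. The cause was not tested. The labels do not say whether the replicate numbers pair the samples. Same-number correlations of deviations were -0.00225, 0.135 and 0.241 in brain and 0.202, 0.358 and -0.264 in fat body. Different-number ones ran from -0.269 to 0.225 in brain and from -0.556 to 0.465 in fat body. Deviations from a group mean are not independent of each other, so these values cannot decide on pairing. With the block, LOC5567053 was called in brain (adjusted p 0.0116) and A10 LOC5576188 lost its call between tissues in the mutant (0.0784). Counts called between tissues and in fat body stayed within 1.5 times under each alternative run. Calls between tissues were lost for Obp83a LOC5577119 with DESeq2 (0.0815), for Obp56d LOC5575348 in wild type on both TPM scales (0.0653 and 0.102), and with 1 library left out for these genes, Obp72 LOC5563613 and lush LOC5568029 in wild type and Obp68 LOC5567749 and A10 LOC5576188 in the mutant.

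Some uncalled genotype differences turned in sign. In brain these were Obp72 LOC5576180 (with a library left out, -0.57 to 0.48), Obp83a LOC5567584 (voom 0.0443, TPM 0.0815 and 0.0827, block 0.0656, left out -0.43 to 0.64), A10 LOC5573203 (library size 0.00148, left out -0.11 to 0.0440) and Obp67 LOC5579332 (library size 0.0247, voom 0.0464, TPM 0.110 and 0.112, block 0.0899, left out -0.31 to 0.72). In fat body these were Obp56d LOC5575342 (left out -0.67 to 0.0965), Obp99a LOC5567045 (library size -0.0338, left out -0.50 to 0.39), LOC5575260 (left out -0.997 to 0.38), Obp72 LOC5576180 (left out -1.84 to 1.05) and Obp56d LOC5575341 (voom -0.35, TPM -0.0985 and -0.22, block -0.0997, left out -0.56 to 0.76). Depth limits the 35 genes never tested, which had at most 22 counts in a library.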

Other observations

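Other families of soluble carriers of small hydrophobic molecules were counted in the same way, and no difference between families was tested. Of all genes, edgeR called 32.0% higher and 32.7% lower in fat body in wild type, and 32.8% and 31.6% in the mutant. Of the NPC2-type lipid-binding proteins, 2 of 2 tested genes in wild type and 2 of 3 in the mutant were called higher in fat body, and 0 were called lower. Their most abundant member, MD-2-related lipid-recognition protein LOC5564141, had 256, 262 and 234 TPM in wild-type fat body and 13.1, 12.9 and 19.4 TPM in wild-type brain. Takeout and juvenile-hormone-binding relatives went both ways, with 6 of 9 tested genes called higher in fat body and 3 lower in wild type, and 4 of 10 in each direction in the mutant. Lipocalins and fatty-acid-binding proteins had 5 of 9 higher and 1 lower in wild type, and 5 of 8 higher and 0 lower in the mutant.

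Between genotypes in brain, apolipoprotein D LOC5578236, a lipocalin, fell from 624, 628 and 706 TPM to 311, 372 and 343 TPM (log2 fold change -0.95, SE 0.14, edgeR adjusted p 0.00869). A second gene of that name, LOC5572154, also fell (log2 fold change -0.50, SE 0.11, adjusted p 0.0354), which made 2 of 7 tested genes of the list lower and 0 higher, beside 4.26% and 4.6% of all genes. No takeout, NPC2 or D7 gene was called between genotypes in either tissue. The 5 D7 genes, salivary relatives of odorant-binding proteins, summed to 124, 343 and 120.3 TPM in wild-type brain and 827, 644 and 82.2 TPM in mutant brain, and all 18 salivary gland markers to 319.5, 749 and 268 TPM and 1871, 1608 and 157 TPM. These sums varied several-fold within each genotype.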
